A study of Homo sapiens with 8 samples.

Results

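The HOX cluster genes encode homeodomain transcription factors and lie in 4 genomic clusters, HOXA on chromosome 7, HOXB on chromosome 17, HOXC on chromosome 12 and HOXD on chromosome 2. They were taken as every row of the deposited tables whose Ensembl identifier carries a HOXA, HOXB, HOXC or HOXD symbol in GENCODE release 29. This gave 39 genes in 40 rows, since HOXC5 has 2 rows, among 66206 rows in each table. RNA had been sequenced from A549, an established human lung adenocarcinoma line, in 8 libraries forming 4 groups of 2. The LNA libraries came from cells transfected with 25 pmol of LNA-GapmeR, either a scramble control or one directed at the non-coding RNA LY6K-AS. The siRNA libraries came from cells transfected with 40 pmol of siRNA, either scramble or directed at YWHAG, the gene of the adaptor protein 14-3-3 gamma. A gapmer is an antisense oligonucleotide that recruits RNase H to cut its target. The titles number the LY6K-AS knockdown libraries 1 and 3 and the YWHAG knockdown libraries 1 and 2. Whether the libraries of a group received the same oligonucleotide, and whether they came from separate cultures, is not given in the labels. The p-values therefore measure only the spread between these libraries, which may be technical.

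HOX proteins assign positional identity along the body axis. Genes at the 3′ end of a cluster carry low paralog numbers and are active early and towards the head, while genes at the 5′ end carry high numbers and act towards the tail and in the limbs and genital tract. Retinoic acid switches on the 3′ genes, Polycomb complexes keep HOX chromatin silent, Trithorax methyltransferases keep it active, and PBX and MEIS proteins bind DNA together with HOX proteins. HOXA5 and HOXB5 take part in the branching and patterning of the developing lung.

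Each library held 26.2 to 34.6 M reads (M, 1000000 reads), taken from the RPKM denominators, and 3 reads corresponded to 0.0868 to 0.115 RPM (reads per M). Mitochondrial genes took 6.43% and 8.43% of reads in the scramble LNA libraries, 8.37% in LY6K-AS knockdown 1 and 4.12% in LY6K-AS knockdown 2, and at most 18.2% in the siRNA libraries. YWHAG was at 163 and 158 RPKM in the scramble siRNA libraries and at 13.5 and 4.91 in its knockdown. LY6K-AS was taken to be the annotated gene LNCOC1, whose reads numbered 34 and 17 with the scramble gapmer and 3 and 8 with the targeting gapmer, too few for a fit. Of 10 epithelial markers 7 were measured, KRT8 and KRT18 among them, while the lung markers NKX2-1, SFTPB and SFTPC had 0 to 7 reads in every library. No immune or endothelial marker passed the expression filter, and COL1A1 was the only fibroblast marker that did.

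The homeobox is the stretch of coding sequence that encodes the DNA-binding homeodomain. It is shown for both pairs of paralogs on which the results below turn, because paralogous HOX genes are most alike there and reads could be shared between near-identical stretches. Each stretch lies in exon 2 of 2, has 180 bases (60 codons) and is given 5′ to 3′ on the coding strand from the GENCODE 29 transcripts, with capitals at bases that differ within the pair. The HOXB13 homeobox is at chr17:48726820-48726999 (minus strand, GRCh38) and the HOXC13 homeobox at chr12:53945041-53945220 (plus strand).
HOXB13: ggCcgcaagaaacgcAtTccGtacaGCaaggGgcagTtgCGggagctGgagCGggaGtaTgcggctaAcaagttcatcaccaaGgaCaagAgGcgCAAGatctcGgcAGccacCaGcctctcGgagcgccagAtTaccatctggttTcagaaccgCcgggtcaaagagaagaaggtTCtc
HOXC13: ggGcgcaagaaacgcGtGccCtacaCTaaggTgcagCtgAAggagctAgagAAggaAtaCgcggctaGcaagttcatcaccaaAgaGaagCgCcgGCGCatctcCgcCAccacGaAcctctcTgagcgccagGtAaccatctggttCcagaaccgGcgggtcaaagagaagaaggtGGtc
The HOXB13 and HOXC13 stretches differed at 36 bases. The HOXB9 homeobox is at chr17:48622921-48623100 (minus strand) and the HOXC9 homeobox at chr12:54002465-54002644 (plus strand).
HOXB9: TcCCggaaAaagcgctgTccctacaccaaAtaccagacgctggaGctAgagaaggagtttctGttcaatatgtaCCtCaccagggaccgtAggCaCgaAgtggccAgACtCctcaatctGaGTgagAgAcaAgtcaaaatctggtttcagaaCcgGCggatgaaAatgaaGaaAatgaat
HOXC9: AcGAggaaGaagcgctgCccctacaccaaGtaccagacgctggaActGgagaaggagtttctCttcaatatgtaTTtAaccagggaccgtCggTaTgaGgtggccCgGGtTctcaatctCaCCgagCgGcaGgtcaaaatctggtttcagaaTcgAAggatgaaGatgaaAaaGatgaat
The HOXB9 and HOXC9 stretches differed at 32 bases. In both pairs the longest run of identical bases was 20, in the homeobox and in the whole coding sequence alike.

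A549 cells expressed most of the HOXA, HOXB and HOXC genes and few of the HOXD genes. A gene was called expressed where 2 or more of the 4 libraries of a table had an RPKM (reads scaled to the exon length in kilobases and to the reads of the library) of 0.5 or more. By this rule 26 of the 39 genes were expressed in the LNA libraries and 21 in the siRNA libraries, and all 21 were among the 26. The LNA libraries expressed 9 of 11 HOXA genes, 8 of 10 HOXB genes, 6 of 9 HOXC genes and 3 of 9 HOXD genes, and the siRNA libraries 7, 7, 6 and 1. By position, 5 of 8 genes of paralog groups 1 to 3, 12 of 15 of groups 4 to 8 and 9 of 16 of groups 9 to 13 were expressed in the LNA libraries. The siRNA libraries expressed 4, 10 and 7 of them. HOXA4, HOXA7, HOXB2, HOXD9 and HOXD10 were expressed in the LNA libraries only, and HOXA4 passed there only through its knockdown libraries. The tables were normalized separately, so a level in the one is not compared with a level in the other.

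**Figure D1:**
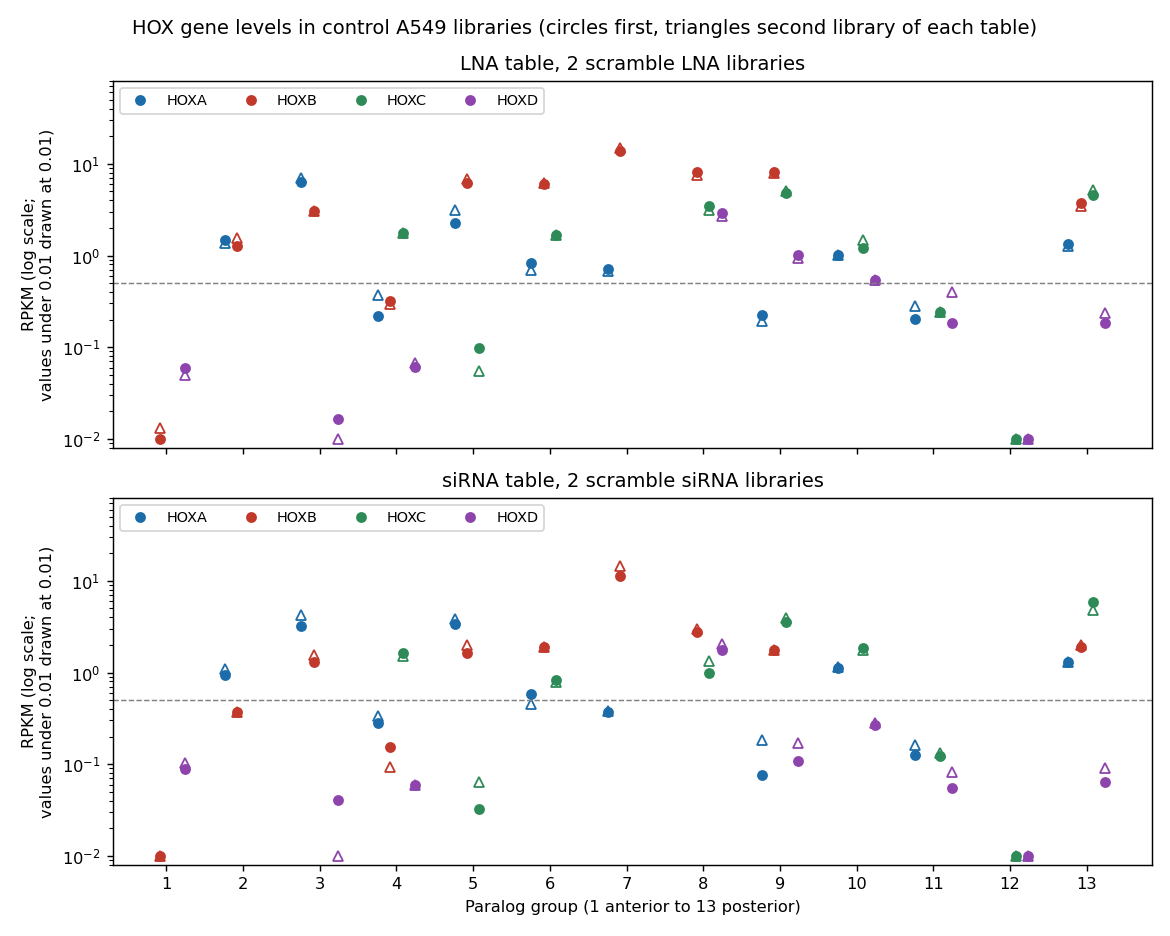
RPKM of the HOX genes reported here (vertical axis, log scale, values under 0.01 drawn at 0.01) by paralog group (horizontal axis, 1 anterior to 13 posterior) in the 2 scramble LNA libraries (upper panel) and the 2 scramble siRNA libraries (lower panel); circles are the first and triangles the second library, colours give the cluster, the dashed line is the filter of 0.5, and HOXC5 is drawn by its row with reads. HOXB7 is the highest point in both panels, and most HOXD points lie under the line.

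HOXB7 had the highest level of the family in both sets of controls, at 13.8 and 14.8 RPKM in the scramble LNA libraries and 11.3 and 14.5 in the scramble siRNA libraries. In the scramble LNA libraries it was followed by HOXB9 (8.22 and 8.03), HOXB8 (8.08 and 7.57) and HOXA3 (6.3 and 6.98). In the scramble siRNA libraries HOXC13 (5.95 and 4.8), HOXA3 (3.22 and 4.26) and HOXC9 (3.54 and 3.92) came next. The levels of HOXB9 and HOXB8 in the LNA controls, and of HOXA3 and HOXC9 in the siRNA controls, differed by less than the spread between libraries. The 13 genes expressed in neither table were HOXA9, HOXA11, HOXB1, HOXB4, HOXC5, HOXC11, HOXC12, HOXD1, HOXD3, HOXD4, HOXD11, HOXD12 and HOXD13. HOXC12, HOXD12 and HOXB1 had 0 or 1 read in every library, while HOXB4 had 41 and 34 reads in the scramble LNA libraries. Both rows of HOXC5 stayed at 8 reads or fewer.

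The clusters differed in where their summed reads lay against the controls. Summed over all genes of a cluster, HOXC reads came to 40.27 and 42.33 RPM in the scramble LNA libraries and 60.39 and 66.4 in the LY6K-AS knockdown. The YWHAG knockdown had 23.18 and 20.96 against 34.4 and 32.32 in its own controls. HOXC was thus above both controls after LY6K-AS knockdown and below both after YWHAG knockdown. The HOXA sums and the sums over all HOX genes, given below, had the same order, so it was not particular to HOXC. Of all single genes tested, 31.4% lay above both controls after LY6K-AS knockdown and 30.8% below both after YWHAG knockdown. In the LNA table the HOXC sum leaned on a single gene, HOXC13. This gene held 378 and 386 of the 1368 and 1293 HOXC reads in the scramble LNA libraries. In the LY6K-AS knockdown it held 683 and 983 of 1581 and 2051. HOXA sums went from 54.05 and 58.4 to 60.35 and 67.99 with the LY6K-AS gapmer, and from 42.78 and 48.31 to 38.17 and 33.11 with the YWHAG siRNA. HOXB sums went from 127 and 128.2 to 139.7 and 149.9 with the gapmer, while the siRNA libraries overlapped, at 53.49 and 61.43 against 65.16 and 60.14. Of the 4315 and 3917 HOXB reads in the scramble LNA libraries, HOXB13 held 440 and 364. With the gapmer it held 507 and 926 of 3658 and 4631. The HOXD sums were the smallest, at 11.98 and 11.92 against 12.64 and 9.195 in the LNA table, where the groups overlapped, and 6.178 and 7.138 against 5.99 and 4.416 in the siRNA table. Over all HOX genes the sums were 233.3 and 240.9 against 273.1 and 293.5 in the LNA table, and 136.8 and 149.2 against 132.5 and 118.6 in the siRNA table. These sums are descriptions and were not tested. In bulk RNA, a share of cells with more of an RNA and more of it per cell cannot be told apart.

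**Figure D2:**
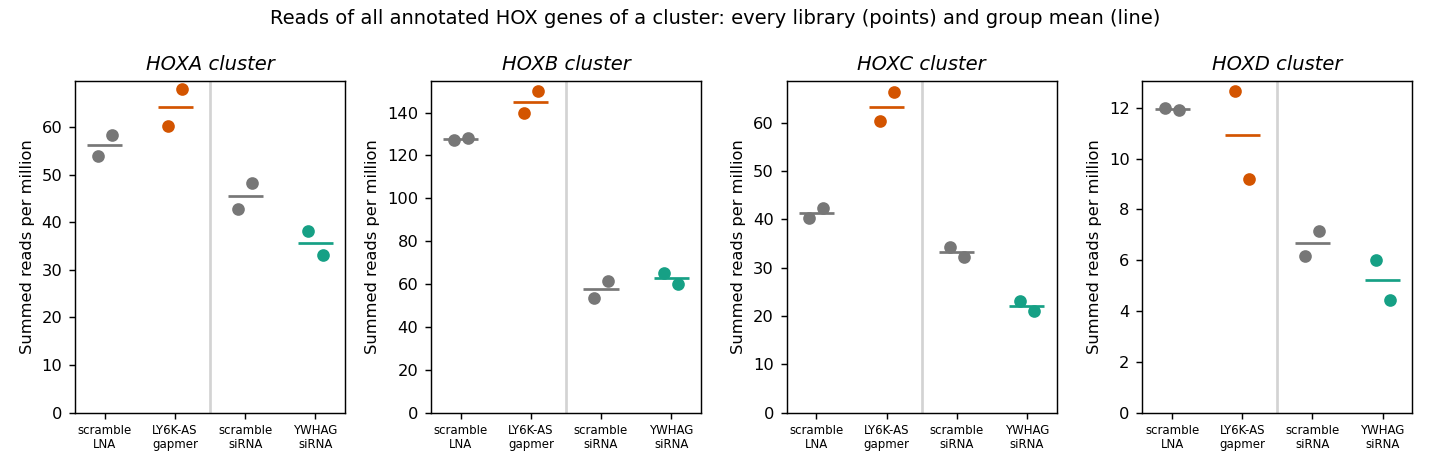
Summed RPM of all annotated HOX genes of each cluster (vertical axis, from 0) in every library (points) with the group mean (line), by group (horizontal axis); the LNA libraries stand left of the grey line and the siRNA libraries right of it. The HOXC panel shows the LY6K-AS knockdown above its controls, at 60.39 and 66.4, and the YWHAG knockdown below its own, at 23.18 and 20.96. The HOXA panel has the same order.

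No HOX gene passed the test after LY6K-AS knockdown, and no gene of the genome did. HOXC13 and HOXB13, the terminal genes of their clusters, had the largest differences among the HOX genes, 1.13 and 0.80 log2 units higher. Knockdown and scramble libraries of a table were compared in limma on log2(RPKM + 1) over all genes past the filter, two-sided. A gene was called where its Benjamini-Hochberg adjusted p was under 0.05. By this rule 0 of 26 HOX genes were called in either direction, against a background of 0.0% of 14662 genes. At an unadjusted p under 0.05, 5 HOX genes were higher, where the background was 13.6% of genes, and 0 were lower, against 11.7%. HOXA4 is 1 of the 5 and entered the test only through the knockdown libraries, in which it was higher. In 14 of 26 HOX genes both knockdown libraries lay above both controls, against 31.4% of all genes, and in 3 they lay below, against 30.5%. Without HOXA4 the counts were 4 higher at an unadjusted p under 0.05 and 13 above both controls, of 25 HOX genes. Changes were above 0 in 18 of 26 HOX genes, against 50.3% of all genes, and below 0 in 8, against 49.7%. These counts and the HOX medians that follow include HOXA4. The median HOX change was 0.14 (0.08 for knockdown 1 and 0.17 for knockdown 2), beside 0.00 for all genes. The median GC content of the HOX genes was 54.4%, against 49.1% for all genes tested. With the trend of level over GC removed from each library, the HOX median was 0.05, beside 0.01 for all genes. In that fit 15 HOX genes were above 0 and 11 below. Scramble LNA libraries differed from each other across genes with an SD of 0.16 log2 units and the LY6K-AS knockdown libraries with an SD of 0.4. Of 7 measured epithelial markers 2 were higher and 0 lower at an unadjusted p under 0.05, KRT19 among them with 37.4 and 39.3 RPKM against 86.9 and 120. Mitochondrial reads and these markers were not tested for their part in the HOX values. Without knockdown 1, which leaves knockdown 2 alone and assumes that it varies like the controls, limma called 11 of 26 HOX genes, against 52.7% of all genes, and 13 had an unadjusted p under 0.05, against 59.8%. Without knockdown 2 it called 3, against 29.7%, and 7 had such a p, against 45.3%. Without scramble LNA library 1 or 2 it called 0 and 2 had such a p, against 5.65% and 6.64% of all genes. In the fits without a knockdown library the HOX shares were thus below those of all genes.

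Of the 5 HOX genes with an unadjusted p under 0.05, 3 belonged to HOXC, which held 6 of the 26 HOX genes tested. The 5 and the 26 include HOXA4, and without it they are 4 and 25. Whether HOXC held more than its share was not tested. HOXC13, a regulator of hair and nail keratins (chr12:53938765-53946544, GRCh38, plus strand), was at 4.59 and 5.21 RPKM in the scramble LNA libraries and at 10.8 and 13.1 in the LY6K-AS knockdown. Both knockdown libraries were more than the controls' whole range above them. The change was 1.13 ± 0.13 (SE, n = 2 per group; limma, adjusted p = 0.103), and the ratio in RPM was 2.47 (95% exact interval 2.26 to 2.69, counting error only). HOXC13 shares 7.1% of its exon bases with the antisense gene HOXC13-AS, and no source used here says whether counting was stranded. HOXC13-AS itself was at 0.523 and 0.651 RPKM in the controls, against 0.597 and 0.943.

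The neighbouring HOXC genes had smaller differences. HOXC10, active in hindlimb and spinal cord, was at 1.21 and 1.49 RPKM against 1.61 and 2.56, with knockdown 2 well above the other 3 libraries (0.38 ± 0.19, adjusted p = 0.286 in limma). HOXC9, a thoracic-level gene, was at 4.79 and 5.11 against 6.3 and 5.98 (0.26 ± 0.09, adjusted p = 0.188 in limma). HOXC4, the most 3′ of the HOXC genes, was at 1.77 and 1.77 against 2.26 and 2.58 (0.30 ± 0.10, adjusted p = 0.18 in limma). In these 3 genes and in HOXC13 the groups did not overlap. HOXC6 was at 1.68 and 1.68 against 1.82 and 2.02. HOXC8 was at 3.46 and 3.15 in the controls, 3.5 in knockdown 1 and 1.9 in knockdown 2, so its change of -0.25 rested on knockdown 2. In the HOXC cluster 5 of 6 genes were higher, with a median of 0.28.

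HOXB held the second large difference. HOXB13, best known from prostate and hindgut (chr17:48724763-48729178, minus strand), was at 3.74 and 3.44 RPKM in the controls, against 5.59 and 8.65 in the knockdown. The knockdown libraries lay above both controls but were far apart from each other. The change was 0.80 ± 0.21 (adjusted p = 0.136 in limma), 0.52 in knockdown 1 and 1.07 in knockdown 2, and the ratio in RPM was 2.01 (95% exact interval 1.85 to 2.2). HOXB13 shares no exon bases with another annotated gene. HOXB9, the next expressed HOXB gene, was instead lower, at 8.22 and 8.03 against 7.53 and 6.23 (-0.22 ± 0.12, adjusted p = 0.316 in limma). The highest gene, HOXB7, was at 13.8 and 14.8 against 13.7 and 12.5 (-0.12). These were the 2 HOXB genes below both controls, and the other 6 lay above them. Over all genes tested 30.5% lay below both controls and 31.4% above. HOXB8 was at 8.08 and 7.57 against 8.53 and 9.11. HOXB6 was at 6.07 and 6.22 against 7.08 and 6.59. HOXB5 was at 6.14 and 6.75 against 7.3 and 7.38. The changes of these 3 genes were 0.13 to 0.16. HOXB3 was at 3.04 and 3.04 against 3.25 and 3.94, and HOXB2, which patterns the hindbrain, at 1.26 and 1.54 against 1.57 and 1.58. The HOXB median was 0.14.

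In HOXA 7 of 9 genes were higher, with a median of 0.16 that came mainly from knockdown 2 (0.03 in knockdown 1, 0.20 in knockdown 2). The counts and medians include HOXA4. HOXA4 had the largest change in the cluster. It was at 0.219 and 0.375 RPKM in the controls, against 0.831 and 0.741 in the knockdown, which is 13 and 20 reads against 38 and 40 (0.46 ± 0.11, adjusted p = 0.128 in limma; ratio 2.67, 1.76 to 4.15). HOXA4 passed the filter only through the group in which it was higher, and 47.3% of its exon bases are shared with other genes, HOXA-AS2 and HOXA-AS3 among them. HOXA5 was at 2.24 and 3.11 against 2.51 and 3.74, with overlapping groups. HOXA3 was at 6.3 and 6.98 against 6.97 and 7.79. In HOXA3 the lower knockdown library did not exceed the higher control. HOXA13, a limb and genital tubercle gene, was at 1.32 and 1.25 against 1.65 and 1.57, above both controls. HOXA7 was at 0.72 and 0.679 against 0.729 and 1.13, and shares 62.5% of its exon bases with HOXA-AS3. The other 3 genes had changes between -0.04 and 0.03. HOXA2 was at 1.46 and 1.36 against 1.51 and 1.19. HOXA6 was at 0.825 and 0.688 against 0.743 and 0.831, and HOXA10 at 1.01 and 1.02 against 0.886 and 1.12.

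The 3 expressed HOXD genes had changes below 0, with a median of -0.10. HOXD8 was at 2.88 and 2.7 RPKM against 2.66 and 2.43. HOXD9 was at 1.02 and 0.945 in the controls, 1.14 in knockdown 1 and 0.485 in knockdown 2. HOXD10 followed the same pattern, at 0.536 and 0.547 against 0.638 and 0.265, and shares 16.8% of its exon bases with HOXD11. The lower level of HOXD9 and HOXD10 was thus present in knockdown 2 only. Among the HOX genes below the filter, the interval of the read ratio included 1 in each of those with an interval.

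**Figure D3:**
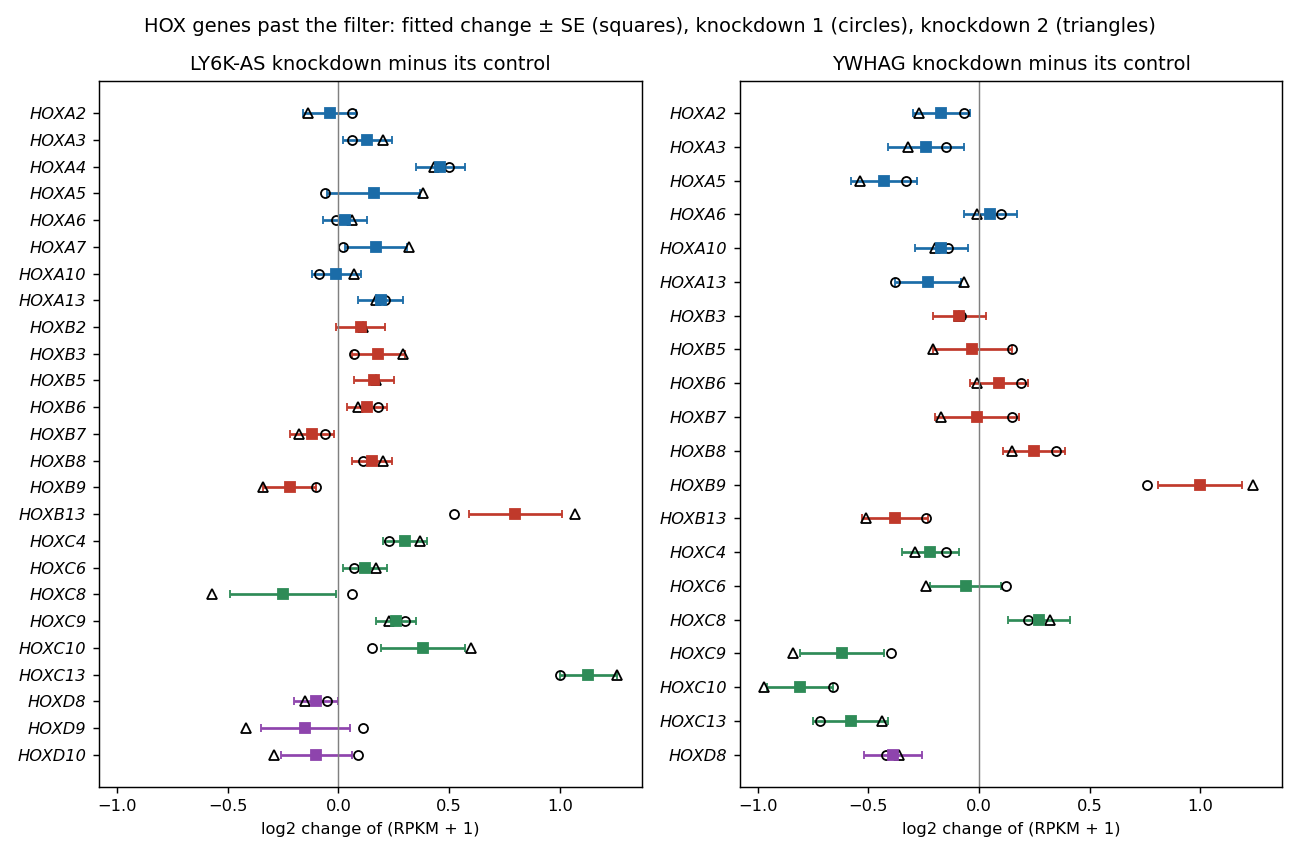
Change of log2(RPKM + 1) against the scramble control (horizontal axis) for the HOX genes past the filter that are reported here (vertical axis), after LY6K-AS knockdown (left) and YWHAG knockdown (right); squares with bars are the fitted change ± SE, circles knockdown 1 and triangles knockdown 2 against the mean control. HOXC13 and HOXB13 lie farthest right on the left, and HOXB9 stands alone on the right of the YWHAG panel.

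After YWHAG knockdown HOX genes were mostly lower, with HOXC10 lowest and HOXB9 the exception at about 1 log2 unit higher. No HOX gene passed the test here either: 0 of 21 were called, against a background of 0.0% of 13903 genes in limma. At an unadjusted p under 0.05, 6 HOX genes were lower, against 8.9% of all genes, and 1 was higher, against 7.51%. Both knockdown libraries lay below both controls in 11 of 21 HOX genes, against 30.8% of all genes, and above them in 3, against 20.4%. Changes were below 0 in 16 of 21 HOX genes, against 57.6% of all genes, and above 0 in 5, against 42.4%. The HOX median was -0.17 (-0.08 in knockdown 1 and -0.24 in knockdown 2), beside -0.05 for all genes. Leaving out scramble siRNA library 2 gave a HOX median of -0.18, and leaving out library 3 gave -0.11. Without knockdown 1 it was -0.24 and without knockdown 2 it was -0.08. The medians of all genes in these fits were -0.06 to -0.04. COL1A1, the fibroblast marker, was at 2.08 and 2.26 RPKM in the controls, against 1.41 and 0.709. The epithelial marker CDH1 was at 4.63 and 4.42 against 10.9 and 13.5. Of 7 measured epithelial markers 2 were higher and 2 lower at an unadjusted p under 0.05, and their part in the HOX values was not tested.

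Of the 6 lower genes with an unadjusted p under 0.05, 4 belonged to paralog groups 9 to 13. At that p 8.9% of all genes were lower. In groups 9 to 13, 6 of 7 genes had a change below 0, against 57.6% of all genes, and the median was -0.38. In groups 1 to 3 all 4 genes were below 0, and in the groups between 6 of 10 were. Whether groups 9 to 13 differed from the other HOX genes was not tested. After LY6K-AS knockdown 5 of 9 genes in groups 9 to 13 were above 0 and 4 below, with a median of 0.19. HOXC10 (chr12:53985065-53990279) was at 1.85 and 1.77 RPKM in the scramble siRNA libraries and at 0.782 and 0.432 in the YWHAG knockdown. That is 149 and 142 reads against 63 and 34, with the groups far apart. The change was -0.81 ± 0.15 (adjusted p = 0.186 in limma), and the ratio in RPM was 0.336 (95% exact interval 0.265 to 0.425). HOXC9 (chr12:53994895-54003337) was at 3.54 and 3.92 against 2.58 and 1.64 (-0.62 ± 0.19, adjusted p = 0.26 in limma). HOXC13 was at 5.95 and 4.8 against 2.84 and 3.67 (-0.58 ± 0.17, adjusted p = 0.257 in limma; ratio 0.605, 0.542 to 0.674). All 3 genes lay below both controls. HOXC11, between HOXC13 and HOXC10, was below the filter, with 14 and 15 reads in the controls against 4 and 3. Its ratio was 0.244 (0.0901 to 0.568). HOXB13 was at 1.92 and 1.98 against 1.49 and 1.07 (-0.38 ± 0.15, adjusted p = 0.304 in limma). HOXA13 was at 1.31 and 1.31 against 0.768 and 1.2. HOXA10, a uterine and leukaemia-associated gene, was at 1.11 and 1.16 against 0.937 and 0.864.

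HOXB9 (chr17:48621159-48626356, minus strand), which acts in the thorax and mammary gland, differed from this pattern. It was at 1.75 and 1.74 RPKM in the controls, against 3.67 and 5.5 in the knockdown, or 156 and 155 reads against 327 and 479. The controls were nearly equal and both knockdown libraries were above them. The change was 1.00 ± 0.19 (adjusted p = 0.193 in limma), and the ratio in RPM was 2.62 (95% exact interval 2.29 to 2.99). HOXB9 shares no exon bases with another gene, and its paralog HOXC9 was lower in the same libraries. HOXB8, its neighbour, was at 2.77 and 3 against 3.96 and 3.31 (0.25). HOXB7 overlapped, at 11.3 and 14.5 against 14.3 and 11.2. HOXB6 was at 1.88 and 1.88 against 2.28 and 1.85, and HOXB5 at 1.65 and 2.02 against 2.14 and 1.44. In both of these knockdown 1 was the highest and knockdown 2 the lowest of the 4 libraries. HOXB3 was at 1.3 and 1.54 against 1.28 and 1.28. The HOXB median was -0.01.

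The remaining HOXC, HOXA and HOXD genes had changes between -0.43 and 0.27. HOXA5, the lung patterning gene, was at 3.35 and 3.86 RPKM in the controls, against 2.66 and 2.17 (-0.43 ± 0.15, adjusted p = 0.275 in limma). HOXD8, the only expressed HOXD gene of the siRNA libraries, was at 1.74 and 2.05 against 1.16 and 1.25 (-0.39 ± 0.13, adjusted p = 0.27 in limma). In both genes the groups did not overlap. HOXC8 was at 0.998 and 1.32 against 1.52 and 1.7. HOXC4 was at 1.62 and 1.5 against 1.31 and 1.1. HOXC6 was at 0.836 and 0.795 against 0.973 and 0.536. HOXC6 overlapped its controls, and HOXC4 lay below them. HOXA2 was at 0.932 and 1.09 against 0.918 and 0.663. HOXA3 was at 3.22 and 4.26 against 3.25 and 2.77. HOXA2 lay below both controls and HOXA3 overlapped them. HOXA6 was at 0.587 and 0.452 against 0.63 and 0.507. The HOXA median was -0.23 and the HOXC median -0.40. For some genes below the filter, HOXC11 among them, the interval of the read ratio did not include 1. This interval covers counting error only. The share of all genes with such an interval is not given here, so these genes are only described. HOXB2 had 30 and 30 reads against 11 and 19, a ratio of 0.505 (0.314 to 0.795). HOXA9 had 8 and 19 reads against 9 and 4 (0.486, 0.23 to 0.975), with overlapping groups. HOXD1 had 6 and 7 reads against 1 and 1 (0.155, 0.017 to 0.686). HOXD11 went the other way, with 4 and 6 reads against 15 and 8 (2.32, 1.06 to 5.46). HOXA4 had 17 and 20 reads against 24 and 11, and HOXA7 31 and 32 against 34 and 18. HOXD10 had 25 and 26 reads in the controls, 57 in knockdown 1 and 16 in knockdown 2, and HOXD9 7 and 11 against 24 and 7. For both of these the knockdown libraries lay on either side of the controls or at their edge.

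**Figure D4:**
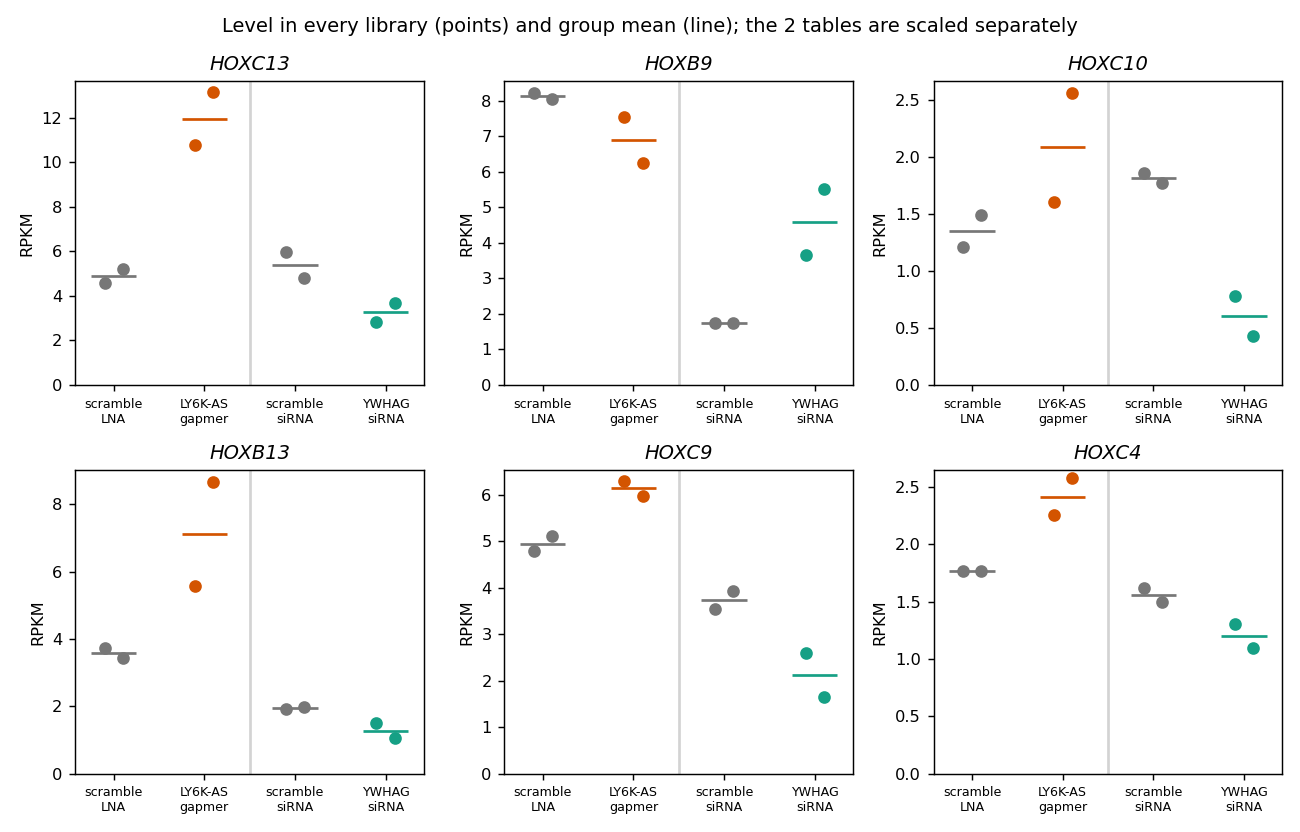
RPKM (vertical axis, from 0) of the 6 HOX genes with an unadjusted p under 0.05 for the difference between the knockdown effects, in every library (points) with the group mean (line), by group (horizontal axis); the tables left and right of the grey line are scaled separately. HOXC13, HOXC10, HOXB13, HOXC9 and HOXC4 are above their controls with the LY6K-AS gapmer and below them with the YWHAG siRNA, and HOXB9 shows the opposite order.

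The effects of the knockdowns on a gene were compared in a single limma fit over all 8 libraries, as the LY6K-AS change minus the YWHAG change, over 12861 genes past the filter in both tables. None of the 21 HOX genes passed at an adjusted p under 0.05, where 0.179% of all genes did (0.0467% with a difference above 0 and 0.132% below). HOXC13 came closest: its difference was 1.71 ± 0.23 (adjusted p = 0.0526 in limma), and with a filter of 1 RPKM the adjusted p was 0.0464. Other settings did not pass: the smallest adjusted p of a HOX gene in limma was 0.121 with no filter. It was 0.0567 and 0.0563 with pseudocounts of 0.1 and 0.5. At an unadjusted p under 0.05, 5 HOX genes had a difference above 0, against 11.5% of all genes, and 1 below, against 8.86%. HOXB9 was the 1 below, at -1.22 ± 0.25 (adjusted p = 0.078 in limma). The others were HOXC10 at 1.19 ± 0.26 (adjusted p = 0.0891), HOXB13 at 1.17 ± 0.27 (adjusted p = 0.102), HOXC9 at 0.88 ± 0.23 (adjusted p = 0.116) and HOXC4 at 0.52 ± 0.16 (adjusted p = 0.148). Of these 6 genes, 4 are HOXC genes and 5 belong to paralog groups 9 to 13. Among the 21 HOX genes compared, 6 are HOXC genes and 7 belong to those groups. Whether this is more than their share was not tested. A p that misses the threshold does not show that the effects were alike for the other 15 genes, whose differences lay between -0.53 and 0.59. The knockdowns differ in oligonucleotide chemistry, dose and table as well as in target, and these cannot be told apart.

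The RefSeq promoter table (GRCh38.p14) holds 20 of the 39 HOX genes. Of the 9 HOX genes with an unadjusted p under 0.05 in a comparison or for the difference, it holds HOXA4, HOXC4 and HOXD8, and not HOXA5, HOXB9, HOXB13, HOXC9, HOXC10 or HOXC13. The 250 bases before each annotated start are shown for these 3 because they are the regulatory sequence nearest to the measured RNA. Capitals mark matches, on either strand, to CCAAT (the CCAAT box), CACGTG (the E-box), GGGCGG (the GC box), TATAAA (the TATA box), AGGTCA (the retinoic acid receptor half-site) or TGATNNAT (the PBX-HOX composite). The windows are chr7:27130758-27131007 on the minus strand, chr12:54016638-54016887 on the plus strand and chr2:176129455-176129704 on the plus strand.
HOXA4: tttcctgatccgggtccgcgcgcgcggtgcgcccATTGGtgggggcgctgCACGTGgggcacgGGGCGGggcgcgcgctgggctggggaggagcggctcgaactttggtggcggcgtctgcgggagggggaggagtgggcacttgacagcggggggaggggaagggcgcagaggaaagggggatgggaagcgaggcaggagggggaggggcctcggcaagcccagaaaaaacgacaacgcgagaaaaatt
HOXC4: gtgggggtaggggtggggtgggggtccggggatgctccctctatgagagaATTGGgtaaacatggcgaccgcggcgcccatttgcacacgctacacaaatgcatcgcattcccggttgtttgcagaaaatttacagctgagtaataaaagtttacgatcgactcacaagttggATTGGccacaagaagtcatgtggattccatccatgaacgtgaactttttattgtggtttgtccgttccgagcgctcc
HOXD8: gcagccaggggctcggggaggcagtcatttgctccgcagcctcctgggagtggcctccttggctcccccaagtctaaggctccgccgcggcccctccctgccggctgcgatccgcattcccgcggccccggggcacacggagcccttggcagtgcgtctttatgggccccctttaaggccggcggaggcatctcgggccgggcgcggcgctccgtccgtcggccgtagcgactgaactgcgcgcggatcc
The HOXA4 window holds 1 CCAAT box, 1 E-box and 1 GC box, the HOXC4 window 2 CCAAT boxes, and the HOXD8 window none of the 6 motifs. Their GC contents are 70.0%, 50.8% and 72.4%, with 26, 14 and 28 CpG dinucleotides. Over the first listed promoter of each of 27305 genes, 33.0% hold a CCAAT box, 6.49% an E-box, 42.3% a GC box, 11.1% a TATA box, 12.1% the half-site and 6.69% the composite. Of the 20 HOX promoters, 17 hold a CCAAT box, 7 an E-box, 10 a GC box, 4 a TATA box, 0 the half-site and 3 the composite. The median number of CpG dinucleotides was 20.5 in HOX promoters and 11 in all. A match is a description of the letters and not of a bound site.

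Non-coding genes of the HOX clusters gave no small p-values. Of 19 listed, 10 were measured after LY6K-AS knockdown and 6 after YWHAG knockdown, with 0 at an unadjusted p under 0.05 in limma in either direction and medians of 0.01 and 0.04. HOXB-AS3 was at 3.74 and 3.13 RPKM against 3.43 and 3.27 with the gapmer, and at 1.58 and 1.35 against 1.69 and 1.55 with the siRNA. HOXB-AS4 was at 2.82 and 2.54 against 2 and 2.18, and at 1.91 and 1.65 against 2.29 and 1.51. HOXB-AS1 was at 0.925 and 0.714 against 1.08 and 0.997, and at 0.595 and 0.968 against 0.334 and 0.418. HOXB-AS1 lay above its controls in the one table and below them in the other (adjusted p = 0.398 and 0.316 in limma). HOXA-AS2 was at 1.8 and 1.8 against 1.71 and 1.39, and at 1.33 and 1.25 against 1.35 and 1.39. HOTAIRM1, a non-coding RNA of the HOXA cluster, was at 1.24 and 1.2 against 1.79 and 0.887, and at 0.776 and 0.892 against 1.18 and 0.594. HAGLR was at 0.992 and 1.01 against 0.839 and 1.04, and at 0.939 and 0.831 against 0.65 and 0.532. In HOTAIRM1 knockdown 1 was above and knockdown 2 below both controls in both tables. HOXB-AS2 (0.14), HOXC13-AS (0.15), HOXC-AS1 (0.30) and HOXD-AS2 (-0.14) were measured after LY6K-AS knockdown only. HOXB-AS2 was at 0.627 and 0.542 against 0.768 and 0.728. HOXC-AS1 was at 1.29 and 1.38 in the controls, 2.77 in knockdown 1 and 1.2 in knockdown 2, so its change rested on knockdown 1. HOXD-AS2 was at 0.659 and 0.573 in the controls, 0.615 in knockdown 1 and 0.34 in knockdown 2. HOTAIR, transcribed from the HOXC cluster, had 3 to 13 reads per library.

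Factors that keep HOX chromatin silent or active were counted from lists, at an unadjusted p under 0.05 in limma and with no gene past the adjusted threshold. Over all genes 13.6% were higher and 11.7% lower by this rule after LY6K-AS knockdown, and 7.51% and 8.9% after YWHAG knockdown. Of 30 Polycomb genes 3 were higher and 6 lower after LY6K-AS knockdown, and of 29 measured after YWHAG knockdown 2 were higher and 6 lower. The Polycomb genes with the smallest p after LY6K-AS knockdown were EZH2 (-0.90), PHF19 (-0.56) and SUZ12 (-0.45), and after YWHAG knockdown EZH2 (-0.49), JARID2 (-0.52) and RYBP (0.42). EZH2, the H3K27 methyltransferase, was at 13.1 and 11.9 RPKM against 6.19 and 6.27 with the gapmer, and at 11.9 and 10.3 against 7.48 and 7.73 with the siRNA. EZH2 was thus below its controls in both knockdowns (adjusted p = 0.103 and 0.251 in limma). Of 17 Trithorax and H3K27 demethylase genes 3 were higher and 5 lower after LY6K-AS knockdown, and 0 and 1 after YWHAG knockdown. The smallest p among them belonged to KDM6B (0.69), KMT2B (0.43) and PSIP1 (-0.37) in the first comparison. In the second it belonged to KDM6A (-0.47), the 1 lower gene, followed by KAT6B (-0.33) and DPY30 (-0.32), whose p was above 0.05. KMT2A, the methyltransferase best known for keeping HOX genes active, was at 2.82 and 2.81 against 2.53 and 1.67, and at 4.02 and 3.05 against 3.59 and 2.78.

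The other lists were counted in the same way, at an unadjusted p under 0.05 and against the same shares of all genes (13.6% higher and 11.7% lower after LY6K-AS knockdown, 7.51% and 8.9% after YWHAG knockdown). Retinoic acid genes had 4 of 14 members higher and 1 lower after LY6K-AS knockdown, and 0 of 13 higher and 3 lower after YWHAG knockdown. By sign alone 10 of the 14 were above 0 in the first comparison, against 50.3% of all genes, and 3 of the 13 in the second, against 42.4%. STRA6, a retinol transporter (0.84), RDH10, which makes retinal (0.88), and DHRS3, which reduces it (0.48), had the smallest p in the first comparison. CYP26B1, which degrades retinoic acid (-0.64), RARB, a receptor and retinoic acid target (-0.72), and RDH10 (-0.58) had it in the second. Of the PBX, MEIS and related TALE cofactors 2 of 9 were higher and 1 lower after LY6K-AS knockdown, the higher ones being MEIS3 (0.50) and PBX4 (0.47). After YWHAG knockdown 1 of 8 was higher, MEIS3 (0.46), and 1 lower, TGIF1 (-0.75), while PBX3 (-0.32), next by p, was above 0.05. CDX and boundary factors had 2 of 5 lower after LY6K-AS knockdown, GMNN (-0.73) and ZNF143 (-0.41), while CTCF (-0.62) had a p above 0.05. After YWHAG knockdown 0 of 5 were lower or higher, with CTCF at -0.36, ZNF143 at -0.23 and GMNN at -0.06. Of 15 measured genes next to the clusters, 1 was higher and 3 lower after LY6K-AS knockdown (MTX2 -0.77, HNRNPA1 -0.47 and CALCOCO1 0.55 had the smallest p). By sign alone 4 of these 15 were above 0, against 50.3% of all genes, and 11 below, against 49.7%. After YWHAG knockdown 0 were higher and 3 lower (SNX10 -0.57, SMUG1 -0.39, CBX5 -0.56). MTX2 neighbours the HOXD cluster, and HNRNPA1 and CALCOCO1 lie on the flanks of HOXC.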

How the data were processed

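RNA sequencing values of 8 A549 libraries were used. The values the authors deposited are RPKM in 2 tables, LNA and siRNA libraries apart. STAR, featureCounts, Subread, Picard and the build hg38 appear in the submitters' processing notes, without version, order or setting. The siRNA control columns carry numbers 2 and 3 and were assigned to their group only.

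Of 66206 identifiers 57055 matched GENCODE 29, 52238 with the same version. For the latter, RPKM times a length gave whole reads for 100% of values (tolerance 0.05 reads): merged exon length in the siRNA table, genomic span minus 1 in the LNA table. LNA values were therefore rescaled to exon length, and 116 unmatched genes past the filter were left out. Reads of all 40 HOX rows were whole. No source used here says whether LNA reads were counted over exons only.

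The fit used limma 3.58.1 under R 4.3.3 on log2(RPKM + 1), its trend option on, over genes reaching 0.5 RPKM in 2 or more of 4 libraries; the added 1 understates changes of low genes. It was run on simulated data in which the libraries of all groups varied to the same degree. The LY6K-AS knockdown libraries differed more than their controls (SD 0.4 against 0.16 log2 units), so that run does not cover their spread. Exact intervals cover counting error alone, and without molecular identifiers a read need not be a separate molecule. Alternatives were pseudocounts of 0.1 and 0.5, a filter of 1 and none, TMM scaling, removal of a GC trend, voom on recovered reads, values as deposited, spread pooled over 8 libraries, the replicate block and each library left out. The HOX genes past the filter are named with their values (some named items are counted but not reported here), as are the 3 members of each other list with the smallest p, EZH2, KMT2A and the measured non-coding HOX genes. Members and lists were chosen with earlier results of these data known.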

Additional observations from a re-analysis of the deposited data

How the results depend on the processing

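No HOX gene changed direction, under any alternative run, in a comparison in which its unadjusted p was under 0.05. Of 846 alternative values for single HOX genes 31 reversed and 28 newly passed the threshold. Since no HOX gene passed at first, the other 787 say little about stability. With the spread pooled over 8 libraries, 1 HOX gene was called in each comparison (HOXC13, adjusted p = 0.0463; HOXB9, adjusted p = 0.0456), among 64 genes after LY6K-AS knockdown and 214 after YWHAG knockdown, and 3 HOX genes had an unadjusted p under 0.05 after LY6K-AS knockdown, against 23.3% of all genes. A filter of 1 RPKM called 1 HOX gene for the difference, and no filter called 0. The LY6K-AS HOX median was 0.05 with the GC trend removed and 0.04 with no filter, and the YWHAG median -0.30 with a pseudocount of 0.1, -0.33 with voom and -0.06 with no filter. With the GC trend removed HOXA6 (-0.22), HOXB2 (-0.05) and HOXB8 (-0.03) reversed after LY6K-AS knockdown and HOXB7 (0.04) after YWHAG knockdown. TMM scaling reversed HOXB5 (0.01) and HOXB7 (0.04) after YWHAG knockdown, moved the median of all genes there from -0.05 to -0.01, and the split at an unadjusted p under 0.05 from 1044 higher and 1237 lower to 1285 and 917. The cause was not tested. voom called 0 genes in both comparisons, with 3901 and 2289 at an unadjusted p under 0.05, against 3706 and 2281.

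Leaving out each library in turn gave, after LY6K-AS knockdown, 2 to 13 of 26 HOX genes at an unadjusted p under 0.05, beside 5.65% to 59.8% of the tested genes, 0 to 11 HOX genes called and 0 to 7725 of 14662 genes called (0.0% to 52.7%). After YWHAG knockdown it gave 2 to 8 of 21 (3.51% to 34.8% of all genes), 0 and 0, and for the difference 0 to 5 HOX genes called (0.0% to 9.21% of all genes). Genes that reversed ranged, after LY6K-AS knockdown, from -0.09 to 0.07 (HOXA10), -0.14 to 0.06 (HOXA2), -0.06 to 0.38 (HOXA5), -0.03 to 0.08 (HOXA6), -0.57 to 0.06 (HOXC8), -0.29 to 0.09 (HOXD10) and -0.42 to 0.11 (HOXD9). After YWHAG knockdown they ranged from -0.02 to 0.11 (HOXA6), -0.21 to 0.15 (HOXB5), -0.01 to 0.19 (HOXB6), -0.18 to 0.16 (HOXB7) and -0.24 to 0.12 (HOXC6), and for the difference from -0.09 to 0.04 (HOXA6), -0.05 to 0.15 (HOXB6), -0.28 to 0.06 (HOXB7) and -0.20 to 0.00 (HOXB8).

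The replicate block for the LNA libraries left 3 HOX genes at an unadjusted p under 0.05, where 23.4% of the tested genes had one, against 5 and 25.3% without it, and called 0. Deviations of libraries with the same label number correlated at 0.08 across 14662 genes. With 2 libraries per group this is a single correlation, and it cannot show whether these libraries shared a culture or batch. No paired analysis was possible for the siRNA libraries because their control columns do not carry the label numbers. A comparison of 2 libraries with 2 leaves 2 residual degrees of freedom, which limits the precision, and genes under about 0.1 RPKM rest on few reads.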
